A study of Mus musculus with 42 samples.

Results

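Plasminogen is a circulating precursor that proteases at the cell surface cut into plasmin, which digests fibrin and other matrix and activates other proteases. The genes examined here carry the parts of that system around plasminogen itself. Plau encodes the urokinase-type activator, Plaur the membrane-anchored urokinase receptor that holds it at the cell surface, and Plat the tissue-type activator. Serpinb2 encodes plasminogen activator inhibitor type 2, a serpin found largely inside cells, Serpine2 encodes protease nexin 1, which inhibits thrombin and urokinase, and Tfpi2 encodes a Kunitz-type inhibitor that is laid down in matrix and blocks plasmin. Urokinase and its receptor are long known from inflamed synovium, where fibrin is deposited and turned over.

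The members were chosen by gene symbol, as every probe set listed with 1 of the 6 names, and the rule found 7 probe sets of 45101, for 5 of the 6 genes. Plau and Plat have 2 probe sets each, Plaur, Serpinb2 and Tfpi2 have 1 each, and Serpine2 has 0 and was not analysed here. In the mouse RefSeq annotation of build GRCm38.p6 Plau lies on chromosome 14 at 20836662 to 20843388, Plaur on chromosome 7 at 24460937 to 24475970 and Plat on chromosome 8 at 22757722 to 22782848. Serpinb2 lies on chromosome 1 at 107500892 to 107525600, and Tfpi2 on chromosome 6 at 3962589 to 3988978. The arrays give 1 value per probe set and no positions of their own.

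Messenger RNA was measured on 42 Affymetrix arrays, 1 array per culture of cells labelled synovial fibroblasts, the matrix-producing cells that line the joint. The cells were taken from female BALB/c mice in which arthritis had been induced by immunization with cartilage proteoglycan and the adjuvant DDA, and the labels name no animal for any culture. The mice were either deficient in Tnfaip6, which encodes TSG-6, a secreted protein that binds hyaluronan (27 arrays), or wild-type (15 arrays). Cultures of up to 6 passages were kept overnight in 0.5% serum and then treated for 12 h or left untreated. The knockout-labelled groups were TNFa at 5 ng/ml (4 arrays), LPS at 200 ng/ml (4 arrays), recombinant mouse TSG-6 at 120 ug/ml (3 arrays), hyaluronan (HA) at 24 ug/ml (4 arrays), TSG-6 together with HA at the same doses (4 arrays) and untreated (8 arrays). Each of the 5 treatments was applied to 2 wild-type cultures, and 5 wild-type cultures were untreated. Values are log2 expression centred on each probe set's median over the arrays, so they show how far an array lies above or below that middle and not how much RNA there was. No level can therefore be compared between genes, and fewer cells of a type cannot be told apart from less RNA per cell.

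3 features of the whole series touch every result below. The probe set of Tnfaip6 averaged -0.11 ± 0.23 (SD, n = 8) in untreated knockout-labelled cultures and -0.37 ± 0.16 (SD, n = 5) in untreated wild-type cultures, a difference of 0.26 ± 0.16 that did not pass the test (limma adjusted p = 0.22). It therefore does not check the genotype labels, and its place with respect to the targeted exons is not known here. The wild-type cultures go against the fibroblast label on the endothelial genes. Of 9 endothelial markers 8 were lower in untreated knockout-labelled than in untreated wild-type cultures, with a median difference of -5.20 over the 9, and Vwf at -0.22 did not pass the test. The summed endothelial level, the mean of the 9 centred values, lay between -1.48 and 0.27 on the 27 knockout-labelled arrays and between 2.98 and 3.81 on the 15 wild-type arrays. Of the 10 fibroblast markers 3 were higher in the knockout-labelled cultures, led by Prg4 (lubricin, a lining product) at 4.41 ± 0.18, and 4 were lower. Among all genes 21.3% were called higher and 16.3% lower between the untreated genotypes. Within each genotype the arrays also fall into a pair of culture sets, called a and b, that the labels do not name (14 and 13 knockout-labelled arrays, 8 and 7 wild-type arrays), and 0 of the 7 member probe sets served to find them. The sets were found separately in each genotype, and the letters do not link a knockout-labelled set to a wild-type set.

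**Figure D1:**
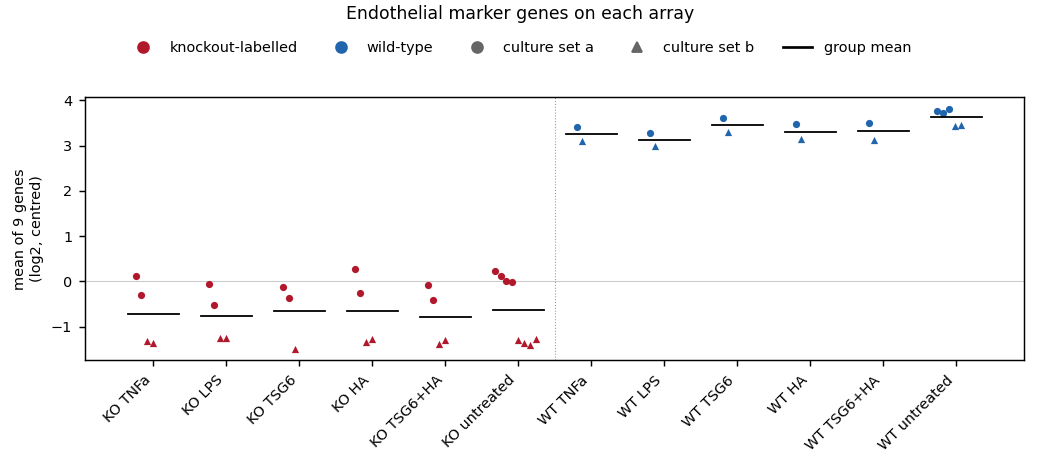
Mean centred log2 value of 9 endothelial marker genes (y axis) on each array, by group (x axis), with circles for culture set a, triangles for culture set b and a line at the group mean. The knockout-labelled arrays lie between -1.48 and 0.27, the wild-type arrays between 2.98 and 3.81, and the medians are -1.33 in set b and -0.06 in set a of the knockout-labelled arrays.

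Promoter sequence from RefSeq (GRCm38.p6, 250 bases before to 50 after a transcript start) was held for 4 of the 6 genes, Plaur, Serpinb2, Serpine2 and Tfpi2. The 3 windows below belong to the measured genes that rose under a treatment, and they are shown because each holds the AP-1 motif, the binding sequence of Fos and Jun proteins. Capitals mark matches to the motifs searched.
Serpinb2 chr1:107511173-107511472 (+): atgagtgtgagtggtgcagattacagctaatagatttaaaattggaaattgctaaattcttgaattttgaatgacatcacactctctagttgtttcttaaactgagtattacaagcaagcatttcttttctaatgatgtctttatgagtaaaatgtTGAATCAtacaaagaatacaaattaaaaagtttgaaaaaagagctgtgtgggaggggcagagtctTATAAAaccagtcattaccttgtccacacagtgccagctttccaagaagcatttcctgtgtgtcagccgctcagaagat
Tfpi2 chr6:3968326-3968625 (-): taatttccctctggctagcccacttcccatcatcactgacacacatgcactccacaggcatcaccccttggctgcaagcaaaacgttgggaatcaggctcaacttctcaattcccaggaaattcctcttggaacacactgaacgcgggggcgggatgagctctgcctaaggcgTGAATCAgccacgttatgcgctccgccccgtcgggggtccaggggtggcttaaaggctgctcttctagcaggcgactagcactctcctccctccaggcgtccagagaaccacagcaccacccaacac
Plaur chr7:24462233-24462532 (+): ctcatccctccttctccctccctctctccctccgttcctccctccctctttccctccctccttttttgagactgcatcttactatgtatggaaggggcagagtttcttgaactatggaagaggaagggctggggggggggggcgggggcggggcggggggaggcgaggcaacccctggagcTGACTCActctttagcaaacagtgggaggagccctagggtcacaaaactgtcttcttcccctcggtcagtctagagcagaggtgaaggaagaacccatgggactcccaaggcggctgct

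The AP-1 search used TGANTCA on both strands. The match begins 94 bases before the start in Serpinb2, 77 before it in Tfpi2 and 69 before it in Plaur, and Serpinb2 also holds TATAAA, searched on the gene's own strand, from 29 bases before its start. Of 32851 promoter windows of the same length 7.81% hold the AP-1 letters and 8.32% hold TATAAA. The other 2 windows of Tfpi2 and the window of Serpine2 hold no match to either, and the second window of Serpinb2 overlaps the one shown. The cAMP response element (TGACGTCA, in 1.79% of windows) and the NF-kB motif (in 5.8% of windows) were searched on both strands and had no match in any window of these genes. A match describes the letters only.

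The members differed widely in how far they moved over the 42 arrays. Serpinb2 spanned 7.23 log2 units, a 150-fold range, Plau 5.53 and Tfpi2 5.29. Plaur spanned 2.89 and Plat 1.75. All but Plat were among the 5% of genes with the largest SD, with Plaur at the 95.5th and Serpinb2 at the 99.5th percentile of 18194 genes, and Plat at the 85.5th.

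**Figure D2:**
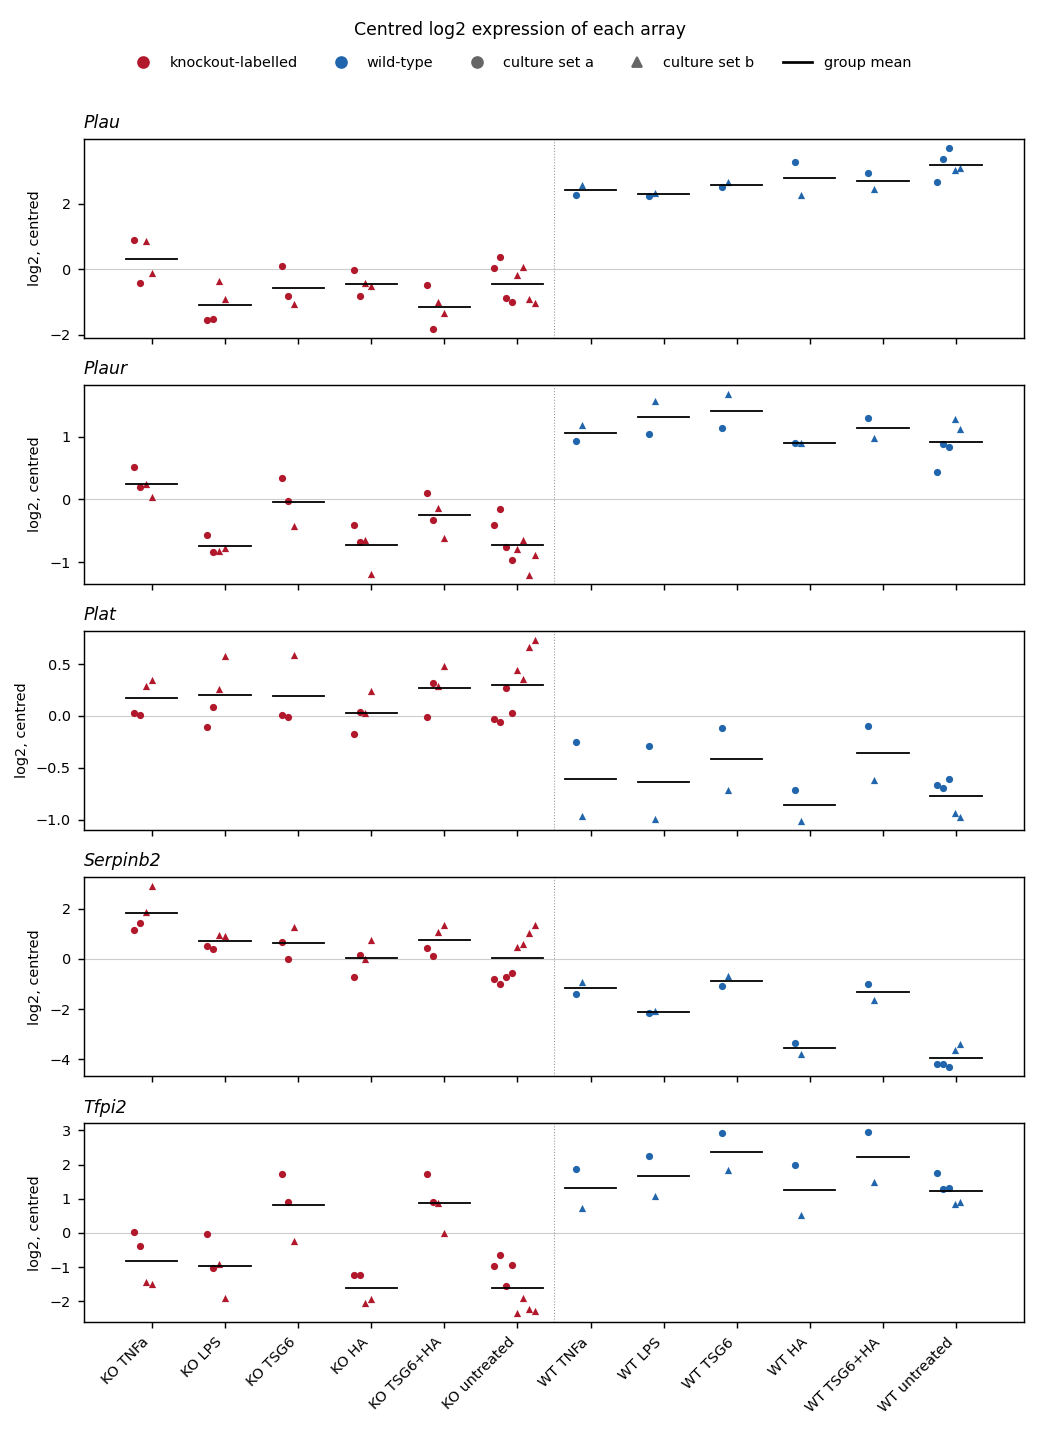
Centred log2 expression (y axis) of Plau, Plaur, Plat, Serpinb2 and Tfpi2 on each of 42 arrays, by group (x axis), with circles for culture set a, triangles for culture set b and a line at the group mean. Plau shows 2 separate bands with every knockout-labelled array below every wild-type array, while Serpinb2 in wild-type cultures and Tfpi2 in knockout-labelled cultures spread widely between treatments.

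The first comparison asks what each treatment did in knockout-labelled cultures, where the cells lack the TSG-6 gene by label and receive the protein from outside. Of 25 pairs of member and treatment 5 passed the test, all higher. TNFa, the inflammatory cytokine, raised Plaur and Serpinb2 (2 of 5 members, where 14% of all genes were called, 6.71% higher and 7.32% lower). TSG-6 raised Tfpi2 and Plaur (2 of 5, where 4.75% of genes were called, 2.1% higher and 2.65% lower), and TSG-6 with HA raised Tfpi2 (1 of 5, where 9.94% were called, 3.33% higher and 6.61% lower). LPS and HA changed 0 of the 5 members by limma's adjusted p (where 1.79% of genes were called under LPS, 0.973% higher and 0.819% lower, and 0.643% under HA, 0.429% higher and 0.214% lower). At an unadjusted p under 0.05 the 25 pairs held 9, where 1256 (HA) to 4538 (TNFa) of 18194 genes passed in a comparison.

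Plau in the knockout-labelled cultures had 0.88, -0.41, 0.87 and -0.11 under TNFa and -1.55, -1.53, -0.37 and -0.92 under LPS. The 8 untreated arrays ran from -1.05 to 0.37 with a median of -0.52, so both treated groups overlap them. The difference from untreated was 0.75 ± 0.30 under TNFa (limma adjusted p = 0.0934) and -0.65 ± 0.30 under LPS (adjusted p = 0.44), and neither passed the test. TSG-6 with HA gave -0.48, -1.83, -1.01 and -1.35, a difference of -0.72 ± 0.30 (adjusted p = 0.13), but the other Plau probe set differed by 0.00 ± 0.28 there. HA (-0.45 ± 0.33, SD, n = 4) and TSG-6 (-0.59 ± 0.62, SD, n = 3) lay near the untreated mean of -0.44 ± 0.57 (SD, n = 8). Set directly against each other, the TNFa arrays averaged 0.31 ± 0.67 and the LPS arrays -1.09 ± 0.57 (SD, n = 4 each), a difference of 1.40 ± 0.34 that passed the test (adjusted p = 0.0116, where 3.48% of genes were called). The call for Plau passed under 11 of 20 alternatives. Among others it was lost without 1 of 4 arrays: without LPS replicate 1 (adjusted p = 0.0587) or 2 (0.0634), and without TNFa replicate 1 (0.0748) or 3 (0.0697). The second Plau probe set gave 0.70 ± 0.32 for TNFa minus LPS (adjusted p = 0.37).

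Plaur, the urokinase receptor, had 0.52, 0.20, 0.25 and 0.03 in knockout-labelled cultures under TNFa, against -1.21 to -0.15 with a median of -0.78 in the 8 untreated ones. Every TNFa array lay above every untreated array, a separation in either direction that 9.38% of genes showed. The difference was 0.98 ± 0.17, or 1.97-fold (adjusted p = 7.56e-05), and it passed the test under all 16 alternatives. TSG-6 gave 0.35, -0.03 and -0.42, a difference of 0.69 ± 0.19 or 1.62-fold (adjusted p = 0.0271), with 1 of the 3 arrays inside the untreated range. That call passed under 8 of 15 alternatives. Among others it was lost without TSG-6 replicate 1 (0.50, adjusted p = 0.31) or replicate 2 (0.69, adjusted p = 0.11), and without the 15 arrays high in 18S ribosomal RNA (0.59, adjusted p = 0.25). TSG-6 with HA gave 0.09, -0.33, -0.13 and -0.61, a difference of 0.49 ± 0.17 that did not pass (adjusted p = 0.0724) and did so with the culture set as a block (adjusted p = 0.0200). LPS (-0.56, -0.85, -0.82 and -0.78) and HA (-0.40, -0.69, -0.65 and -1.19) lay among the untreated arrays. TNFa minus LPS was 1.00 ± 0.20 for Plaur (adjusted p = 0.00119), with no overlap between the 4 arrays of each, as in 8.67% of genes. That call was lost without the arrays high in 18S (1.08, adjusted p = 0.0612) and in culture set b alone (0.94, adjusted p = 0.0523).

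Plat, the tissue-type activator, was the flattest member. Its group means in knockout-labelled cultures ran from 0.03 ± 0.17 under HA (SD, n = 4) to 0.30 ± 0.31 in untreated cultures (SD, n = 8), all 6 ranges overlapped, and the differences from untreated lay between -0.27 (HA) and -0.03 (TSG-6 with HA) with adjusted p of 0.72 or more. The 95% interval of the TNFa difference ran from -0.47 to 0.21.

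Serpinb2, the inhibitor, had 1.17, 1.44, 1.87 and 2.90 in knockout-labelled cultures under TNFa, against -0.81, -1.02, -0.74 and -0.55 (set a) and 0.47, 0.61, 1.05 and 1.36 (set b) in the untreated ones. The TNFa arrays are high and overlap only the highest untreated arrays, which belong to set b. The difference was 1.80 ± 0.37, or 3.48-fold (adjusted p = 0.000486), and it passed under all 16 alternatives. Within set a it was 2.08 and within set b 1.51. LPS gave 0.54, 0.41, 0.95 and 0.93, a difference of 0.66 ± 0.37 that did not pass (adjusted p = 0.59). Within set a that difference was 1.25, which passed in that set alone (adjusted p = 0.0165), and within set b it was 0.07. Set directly against LPS, TNFa differed by 1.14 and did not pass (adjusted p = 0.17). It passed with the culture set as a block (adjusted p = 0.00385). TSG-6 (0.68, -0.01 and 1.27) and TSG-6 with HA (0.45, 0.11, 1.09 and 1.37) differed from untreated by 0.60 and 0.71 and did not pass (adjusted p = 0.54 and 0.26). With the culture set as a block these became 0.78 ± 0.25 and 0.71 ± 0.23, both past the threshold (adjusted p = 0.0492 and 0.0294). In set a alone they were 1.11 and 1.06 and passed (adjusted p = 0.0130 and 0.0134), and in set b they were 0.40 and 0.36. HA gave -0.70, 0.14, 0.01 and 0.76, spread over the same range as the untreated arrays.

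Tfpi2, the plasmin-blocking matrix inhibitor, had 1.72, 0.92 and -0.22 under TSG-6 and 1.71, 0.90, 0.89 and -0.01 under TSG-6 with HA in knockout-labelled cultures. The 8 untreated arrays had -0.97, -0.66, -1.54 and -0.94 (set a) and -2.36, -1.92, -2.22 and -2.29 (set b). All 7 arrays that received TSG-6 lay above all 8 untreated arrays. With each treatment taken on its own, separation from the untreated arrays held for 6.5% of genes under TSG-6 and 6.63% under TSG-6 with HA. TSG-6 raised Tfpi2 by 2.41 ± 0.45, or 5.33-fold (adjusted p = 0.00078), and TSG-6 with HA by 2.48 ± 0.41, or 5.59-fold (adjusted p = 6.56e-05). These differences ranked 2 and 3 from the top among 18194 genes, and both passed under every alternative run (15 and 16). Within set a the 2 differences were 2.34 and 2.33, and within set b 1.97 (1 TSG-6 array) and 2.63. HA alone gave -1.24, -1.24, -2.06 and -1.94, which lie within the untreated range, a difference of -0.01 ± 0.41.

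TNFa and LPS did not move Tfpi2 past the test. TNFa gave 0.01, -0.38, -1.42 and -1.50 and LPS -0.04, -1.04, -0.92 and -1.91, with differences of 0.79 ± 0.41 (adjusted p = 0.24) and 0.63 ± 0.41 (adjusted p = 0.69). With the culture set as a block the TNFa difference passed (adjusted p = 0.00533). Set directly against TNFa and LPS, TSG-6 differed by 1.63 and 1.78 for Tfpi2, and neither passed (adjusted p = 0.0656 and 0.13). Both passed with the culture set as a block (adjusted p = 0.000148 and 0.00029). Adding TSG-6 to HA raised Tfpi2 by 2.49 ± 0.47 over HA alone (adjusted p = 0.00187), the single call among 20 pairs of member and comparison that set the mixture against its parts (1.79% of genes were called there). It held under all 20 alternatives. Adding HA to TSG-6 changed Tfpi2 by 0.07, and 0 of 18194 genes were called in that comparison in either genotype. TSG-6 directly against HA gave 2.42 ± 0.51 for Tfpi2 (adjusted p = 0.00971, where 0.901% of genes were called), rank 1 of 18194 genes. That call passed under 14 of 19 alternatives, and among others was lost without TSG-6 replicate 1 (1.97, adjusted p = 0.18) or 2 (2.37, adjusted p = 0.0594).

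Some markers of cell types also moved under the treatments of the knockout-labelled cultures. Of 10 fibroblast markers 3 were higher and 1 lower under TSG-6 and 4 were higher and 1 lower under TSG-6 with HA, and their mean level was 0.12 to 0.45 under TSG-6 and 0.22 to 0.52 under TSG-6 with HA, against -0.32 to 0.08 in untreated cultures. Of 9 macrophage markers 2 were higher under TNFa, 1 under LPS and 1 under TSG-6 with HA, with a mean level of -0.05 to 0.20 under TNFa, against -0.40 to -0.06 in untreated cultures. Of 4 neutrophil markers 1 was higher under each of TNFa, TSG-6 and TSG-6 with HA. Among all genes 14% were called under TNFa, 1.79% under LPS, 4.75% under TSG-6 and 9.94% under TSG-6 with HA. The part of these markers in the responses of Plaur, Serpinb2 and Tfpi2 was not tested.

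**Figure D3:**
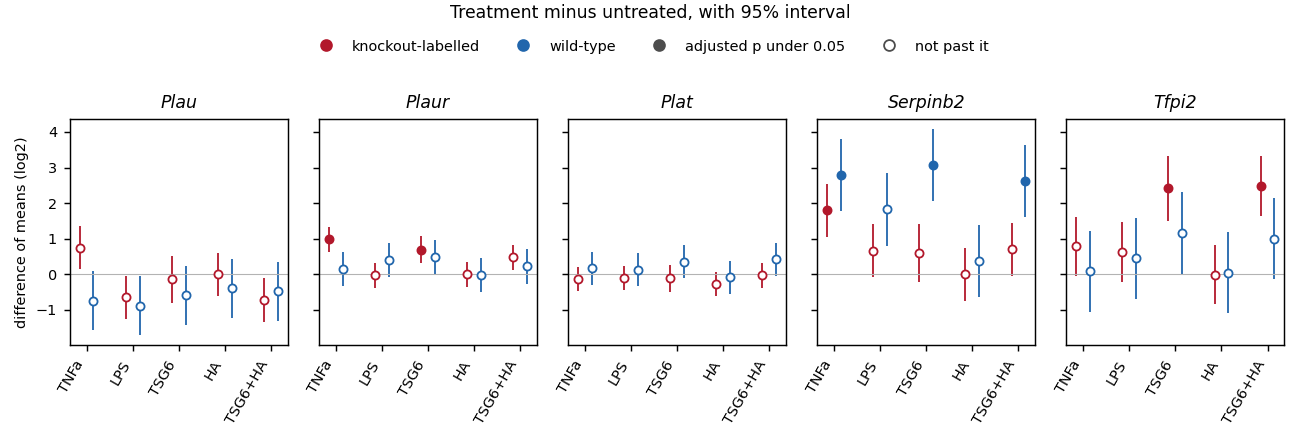
Difference of group means between treated and untreated cultures (y axis, log2) for each member and treatment (x axis), knockout-labelled in red and wild-type in blue, with 95% intervals from limma and filled points where adjusted p was under 0.05. Plaur and Serpinb2 are filled for TNFa, Plaur for TSG-6 and Tfpi2 for TSG-6 and TSG-6 with HA in knockout-labelled cultures, and Serpinb2 for TNFa, TSG-6 and TSG-6 with HA in wild-type cultures.

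The same treatments in wild-type cultures, with 2 arrays each, moved Serpinb2 and no other member past the test. It was 1 of 5 members called under TNFa (2.56% of genes were called, 1.41% higher and 1.15% lower), under TSG-6 (0.429%, with 0.275% higher and 0.154% lower) and under TSG-6 with HA (0.802%, with 0.368% higher and 0.434% lower). By limma 0 of 5 were called under LPS (1.19%, with 0.737% higher and 0.456% lower) and HA (0.132%, with 0.0934% higher and 0.0385% lower). At an unadjusted p under 0.05 the 25 pairs held 7, where 721 (TSG-6) to 1730 (TNFa) of 18194 genes passed in a comparison. Serpinb2 had -1.41 and -0.92 under TNFa, -2.17 and -2.08 under LPS, -1.08 and -0.68 under TSG-6 and -1.01 and -1.64 under TSG-6 with HA, against -4.18, -4.19, -4.33, -3.65 and -3.40 in untreated wild-type cultures. All 8 of these treated arrays lay above all 5 untreated ones. With each of these treatments taken on its own, groups separated in 9.5% to 13.7% of genes. HA gave -3.37 and -3.78. TSG-6 raised Serpinb2 by 3.06 ± 0.50, or 8.36-fold (adjusted p = 0.000582), rank 1 of 18194 genes in that comparison. TNFa raised it by 2.78 ± 0.50, or 6.89-fold (adjusted p = 0.000424), and TSG-6 with HA by 2.62 ± 0.50, or 6.15-fold (adjusted p = 0.0028).

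The LPS difference for Serpinb2 in wild-type cultures was 1.82 ± 0.50, or 3.54-fold, and missed the threshold (adjusted p = 0.0674). It passed with the culture set as a block, at 1.80 ± 0.31 (adjusted p = 0.000205). The TSG-6 call was lost without TSG-6 replicate 2 (2.86, adjusted p = 0.0584) and the call for TSG-6 with HA without its replicate 1 (2.31, adjusted p = 0.0559), and all 3 calls were lost after quantile normalization (adjusted p = 0.27 to 0.97) at differences of 2.43 to 2.63. Within set a the differences for TNFa, TSG-6 and TSG-6 with HA were 2.82, 3.15 and 3.22, and within set b 2.61, 2.84 and 1.88. Each of these within-set values rests on 1 treated array.

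The other members stayed short of the threshold in wild-type cultures. Tfpi2 had 2.91 and 1.84 under TSG-6 and 2.94 and 1.50 under TSG-6 with HA, against 1.75, 1.28, 1.32, 0.84 and 0.90 in untreated cultures. Its differences of 1.16 ± 0.56 (adjusted p = 1) and 1.00 ± 0.56 (adjusted p = 0.67) were positive within both culture sets (1.46 and 0.97, 1.49 and 0.63). Each of these within-set values rests on 1 treated array. With the culture set as a block the differences of Tfpi2 became 1.26 ± 0.28 and 1.10 ± 0.28 and passed (adjusted p = 0.0117 and 0.0261). Plau was 3.17 ± 0.39 (SD, n = 5) in untreated wild-type cultures, the highest of its 12 group means, and the 5 treated means lay 0.39 to 0.88 below it. Both arrays under TNFa (2.27 and 2.57) and both under LPS (2.24 and 2.34) lay below all 5 untreated ones (2.66, 3.37, 3.70, 3.02 and 3.09), where groups separated in 13.7% of genes under TNFa and 12% under LPS. The differences of -0.75 ± 0.41 and -0.88 ± 0.41 did not pass (adjusted p = 0.64 and 0.70). Plat differed by 0.42 ± 0.23 under TSG-6 with HA (adjusted p = 0.65), and by 0.56 and 0.34 within the sets (1 treated array each). With the culture set as a block this Plat difference was 0.47 ± 0.13 and passed (adjusted p = 0.0356), but the other Plat probe set differed by 0.02 ± 0.14. Under the other treatments Plat differed by -0.09 (HA) to 0.36 (TSG-6) and did not pass. Plaur under TSG-6 had 1.13 and 1.68, against 0.44 to 1.28 in untreated cultures (0.49 ± 0.24, adjusted p = 1).

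**Figure D4:**
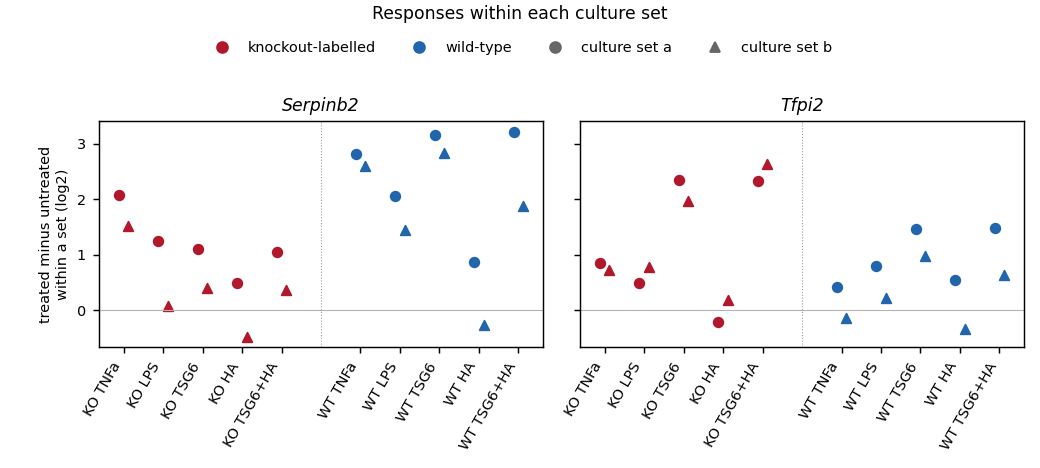
Difference between treated and untreated means taken within 1 culture set (y axis, log2) for Serpinb2 and Tfpi2 by treatment (x axis), knockout-labelled in red and wild-type in blue, with circles for set a and triangles for set b. Serpinb2 lies above 1.5 in both sets under TNFa in both genotypes but at 1.25 in set a and 0.07 in set b under LPS in knockout-labelled cultures, and Tfpi2 lies between 1.97 and 2.63 in both knockout-labelled sets under TSG-6 and TSG-6 with HA. Every wild-type point rests on 1 treated array, as do the knockout-labelled TSG-6 points of set b.

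The culture sets moved with several members. In knockout-labelled cultures Serpinb2 was higher in set b than in set a in 6 of 6 groups (median difference 0.95) and Plat in 6 of 6 (0.36), whereas Tfpi2 was lower in 6 of 6 (-1.02) and Plaur in 6 of 6 (-0.28). In wild-type cultures Tfpi2 was lower in set b in 6 of 6 groups (-1.16) and Plat in 6 of 6 (-0.56). The letters do not match between the genotypes, so these signs cannot be compared between them. Plau had no steady direction (higher in set b in 2 of 6 knockout-labelled and 3 of 6 wild-type groups). The endothelial level was also lower in set b, with medians of -1.33 in set b and -0.06 in set a of the knockout-labelled arrays and 3.14 in set b and 3.56 in set a of the wild-type arrays, and its part in these differences was not tested.

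Between the untreated genotypes all 5 measured members differed, 3 lower and 2 higher in knockout-labelled cultures (37.5% of all genes were called, 21.3% higher and 16.3% lower). The urokinase pair was lower. Plau had 0.03, 0.37, -0.87, -1.01, -0.17, 0.05, -0.92 and -1.05 in untreated knockout-labelled cultures, against 2.66 to 3.70 in untreated wild-type ones. The difference of -3.61 ± 0.28 is 12.2-fold lower (adjusted p = 3.49e-13), and the second probe set gave -3.19 ± 0.26. Over all conditions the 27 knockout-labelled arrays lay between -1.83 and 0.88 and the 15 wild-type arrays between 2.24 and 3.70. Separated genotypes were common among all genes, in 23.2% of them untreated and in 36.1% (HA) to 42.8% (TSG-6) under treatment. Plaur differed by -1.64 ± 0.16, 3.12-fold lower (adjusted p = 1.42e-10), with 26 of 27 knockout-labelled arrays below every wild-type array.

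Plat had -0.03, -0.06, 0.27, 0.03, 0.45, 0.36, 0.66 and 0.73 in untreated knockout-labelled cultures, against -0.67, -0.69, -0.61, -0.93 and -0.97 in wild-type ones, a difference of 1.08 ± 0.16 or 2.11-fold (adjusted p = 5.39e-07). The 2 Plat probe sets disagree, since the other, whose SD over the arrays was only 0.16, differed by 0.15 ± 0.09 (adjusted p = 0.26). Serpinb2 was 4.00 ± 0.34 higher, or 15.9-fold (adjusted p = 4.83e-12), with every untreated knockout-labelled array at -1.02 or above and every untreated wild-type array at -3.40 or below. Tfpi2 was 2.83 log2 units lower (-2.83 ± 0.38, 7.11-fold, adjusted p = 1.37e-07), with untreated knockout-labelled arrays from -2.36 to -0.66 and untreated wild-type arrays from 0.84 to 1.75.

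Cyclic loess normalization was run on the centred values, which hold no expression level. It kept all 5 of the untreated calls above but gave smaller differences for Plau (-1.11), Serpinb2 (1.84) and Plat (0.63). As given above, 8 of 9 endothelial markers were lower in untreated knockout-labelled cultures. Of 9 macrophage markers 2 were lower in untreated knockout-labelled cultures (Cd14 at -1.28 and Lyz2 at -1.58), where 16.3% of all genes were called lower. The mean level of the 9 was -0.40 to 0.20 on knockout-labelled and 0.06 to 0.40 on wild-type arrays. The part of these markers in the genotype differences was not tested. Within knockout-labelled cultures 0 of 9 endothelial markers changed under any of the 5 treatments by limma's adjusted p, and within wild-type cultures 1 of 9 was lower under each treatment. Among all genes 0.643% (HA) to 14% (TNFa) were called in knockout-labelled cultures and 0.132% (HA) to 2.56% (TNFa) in wild-type ones.

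**Figure D5:**
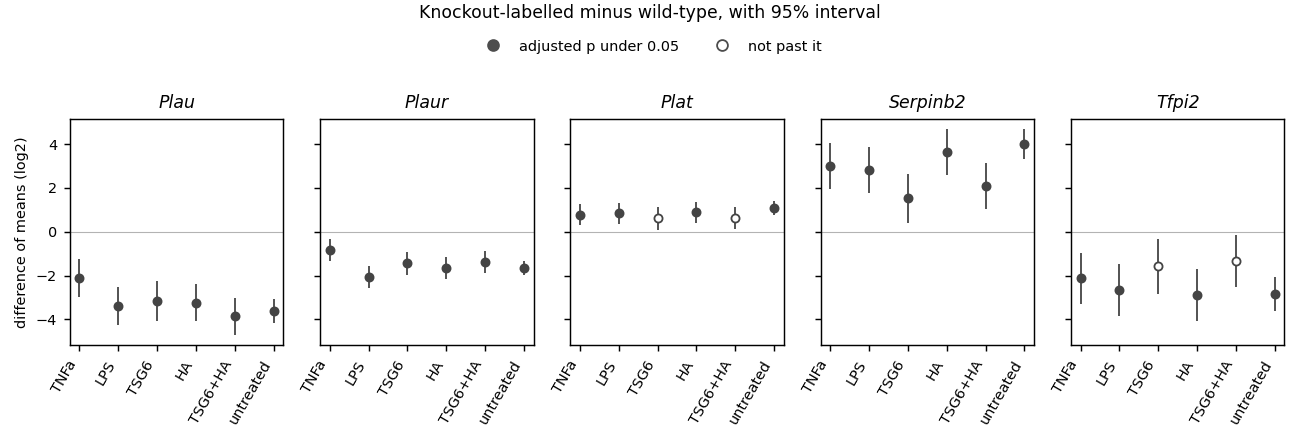
Difference of group means between knockout-labelled and wild-type cultures (y axis, log2) for each member under each treatment and untreated (x axis), with 95% intervals from limma and filled points where adjusted p was under 0.05. Plau, Plaur and Tfpi2 lie below 0 and Plat and Serpinb2 above 0 in all 6 conditions, and 4 points are open (Plat and Tfpi2 under TSG-6 and under TSG-6 with HA).

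Under treatment the same directions were seen in all 25 pairs of member and condition, and 21 passed the test (8 higher and 13 lower). Cyclic loess left 8 of these 21 calls and turned 2 directions, Plau under TNFa (0.17, adjusted p = 0.85) and Serpinb2 under TSG-6 (-0.53, adjusted p = 0.68). It took Plau under LPS to -1.09 and Serpinb2 under TSG-6 with HA to 0.03. Plau differed by -2.12 ± 0.42 under TNFa to -3.85 ± 0.42 under TSG-6 with HA, and Plaur by -0.82 ± 0.25 under TNFa to -2.06 ± 0.25 under LPS. Serpinb2 differed by 3.63 ± 0.52 under HA, 3.01 ± 0.52 under TNFa, 2.83 ± 0.52 under LPS, 2.09 ± 0.52 under TSG-6 with HA and 1.53 ± 0.55 under TSG-6 (adjusted p = 0.0449). The share of all genes called was 23.5% under TNFa (13.6% higher, 9.88% lower), 24% under LPS (13.4% higher, 10.6% lower) and 18.9% under TSG-6 (10.3% higher, 8.68% lower). It was 23.3% under HA (13.2% higher, 10.1% lower) and 21.6% under TSG-6 with HA (12% higher, 9.61% lower). The 4 pairs that did not pass were Plat and Tfpi2 under TSG-6 (0.61 ± 0.25, adjusted p = 0.0888, and -1.58 ± 0.61, adjusted p = 0.0699) and under TSG-6 with HA (0.63 ± 0.24, adjusted p = 0.0544, and -1.35 ± 0.58, adjusted p = 0.10). The Serpinb2 call under TSG-6 was also lost after quantile normalization (adjusted p = 0.19), with every probe set tested (0.0518), and without replicate 1 or 3 of the knockout-labelled group (adjusted p = 0.0810 and 0.20) or either wild-type array (0.25 and 0.12).

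Single arrays also ended 6 other calls between the genotypes. Without wild-type TNFa replicate 2 the TNFa differences of Plaur (-0.69, adjusted p = 0.16) and Plat (0.42, adjusted p = 0.43) no longer passed, and without wild-type TNFa replicate 1 that of Tfpi2 did not (-1.56, adjusted p = 0.16). Plat also lost its calls without wild-type LPS replicate 2 (0.49, adjusted p = 0.35) and wild-type HA replicate 2 (0.74, adjusted p = 0.12), and Serpinb2 lost its call under TSG-6 with HA without wild-type replicate 2 (1.77, adjusted p = 0.0889).

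Whether the genotypes responded differently was tested directly, and 0 of 25 pairs of member and treatment passed by limma, where 0.044% to 0.808% of genes were called. At an unadjusted p under 0.05 the 25 pairs held 5, where 398 (HA) to 1281 (TSG-6 with HA) of 18194 genes passed in a comparison. Under TSG-6 Serpinb2 differed from untreated by 0.60 in knockout-labelled and 3.06 in wild-type cultures, a difference in response of -2.47 ± 0.64 (adjusted p = 0.31) that ranked lowest of 18194 genes. With the culture set as a block it was -2.27 ± 0.40 and passed (adjusted p = 0.00248), as did its difference under TSG-6 with HA (-1.89 ± 0.38, adjusted p = 0.00664, against -1.91 ± 0.62 and 0.32 without the block). For Tfpi2 the response to TSG-6 with HA was 1.48 ± 0.70 larger in knockout-labelled cultures (adjusted p = 0.67), and 1.38 ± 0.35 with the block (adjusted p = 0.0409). With the sets matched between the genotypes by letter, which is arbitrary, these 3 differences kept their signs and none passed (in set a and set b, Serpinb2 under TSG-6 -2.04 and -2.44, under TSG-6 with HA -2.16 and -1.52, Tfpi2 0.84 and 2.00). Untreated Serpinb2 itself differed by 4.00 between the genotypes.

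Ordered by group mean, neighbouring groups mostly overlapped. For Serpinb2 the order ran from knockout-labelled TNFa (1.85 ± 0.76, SD, n = 4) down to untreated wild-type cultures (-3.95 ± 0.40, SD, n = 5), and only the steps from wild-type TSG-6 with HA to wild-type LPS (0.80) and from there to wild-type HA (1.45) had no overlap between neighbours. For Plau and Plaur the single step without overlap was between the genotypes (1.98 and 0.65). For Plat and Tfpi2 all 11 neighbouring pairs of groups overlapped in range.

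Of the other genes of the plasminogen system 19 of 22 listed were measured. In knockout-labelled cultures 1 was higher and 2 lower under TNFa, 0 and 1 under LPS, 0 and 1 under TSG-6, 0 and 0 under HA and 0 and 3 under TSG-6 with HA, and the medians over the 19 lay between -0.16 and 0.01, against -0.005 to 0.01 over all genes. Of all genes 14% were called under TNFa, 1.79% under LPS, 4.75% under TSG-6, 0.643% under HA and 9.94% under TSG-6 with HA. S100a10, a plasminogen receptor subunit that pairs with annexin A2, was the one that fell in 4 of the 5 treatments. It averaged -0.33 ± 0.12 under TNFa, -0.45 ± 0.12 under LPS and -0.53 ± 0.22 under TSG-6 with HA (SD, n = 4 each) and -0.27 ± 0.25 under TSG-6 (SD, n = 3), against 0.28 ± 0.24 (SD, n = 8) in untreated cultures. The differences were -0.61 ± 0.13 (adjusted p = 0.00124), -0.73 ± 0.13 (0.00101), -0.81 ± 0.13 (6.56e-05) and -0.55 ± 0.15 (0.0219). Plg, plasminogen itself, which was named after its value was seen, was the one that rose under TNFa (0.27 ± 0.09, adjusted p = 0.0356). Hgf, a growth factor that urokinase can activate, fell under TNFa (-0.75 ± 0.23, adjusted p = 0.0222), and Vldlr, a receptor that clears serpin complexes, under TSG-6 with HA (-0.85 ± 0.24, adjusted p = 0.0189).

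In wild-type cultures 1 of the 19 was higher under TNFa (where 2.56% of all genes were called) and 0 changed under the other treatments by limma. It was Itgb3, the integrin beta 3 chain, at 4.01 ± 0.10 under TNFa (SD, n = 2), against 3.23 ± 0.22 (SD, n = 5) in untreated cultures, a difference of 0.78 ± 0.21 (adjusted p = 0.0344). In knockout-labelled cultures it fell under TSG-6 with HA (-0.48 ± 0.16, adjusted p = 0.0408). Between the untreated genotypes 7 of the 19 were higher and 3 lower in knockout-labelled cultures, and Itgb3 had the most negative difference of these, at -3.25 ± 0.14 (adjusted p = 1.17e-19). Of all genes 37.5% were called there, 21.3% higher and 16.3% lower.

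Of 12 genes of clotting at the cell surface 11 were measured (F2rl1 was not analysed here). In knockout-labelled cultures 1 was higher and 2 lower under TNFa and 2 higher and 1 lower under TSG-6 with HA, with 0 under the other treatments (of all genes 14% were called under TNFa and 9.94% under TSG-6 with HA). In wild-type cultures 1 was higher and 1 lower under TNFa and 1 higher under LPS (of all genes 2.56% and 1.19% were called). Tgm2, a transglutaminase that cross-links proteins, rose in both genotypes. Under TNFa it averaged 1.11 ± 0.12 (SD, n = 4), against -0.56 ± 0.33 (SD, n = 8) in untreated knockout-labelled cultures (1.67 ± 0.15, adjusted p = 6.13e-11), and its difference in wild-type cultures was 1.03 ± 0.20 under TNFa (adjusted p = 0.00112) and 0.95 ± 0.20 under LPS (adjusted p = 0.00576). F3, the tissue factor that starts clotting, fell under TNFa in wild-type cultures (-0.89 ± 0.18, adjusted p = 0.00146) and rose under TSG-6 with HA in knockout-labelled ones (0.40 ± 0.13, adjusted p = 0.0454). There Thbd, thrombomodulin, fell (-0.54 ± 0.12, adjusted p = 0.00229), and Pros1, protein S, fell under TNFa (-0.43 ± 0.11, adjusted p = 0.0055), as did F2r, the thrombin receptor, named after its value was seen (-0.42 ± 0.11, adjusted p = 0.00703). Between the untreated genotypes 1 of the 11 was higher and 5 were lower in knockout-labelled cultures, against 21.3% higher and 16.3% lower among all genes.

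Correlations between members over all groups often differed from those within a genotype. Over the 12 group means Plau correlated with Plaur at r = 0.92 and with Serpinb2 at -0.83, while over the 6 knockout-labelled means the values were 0.50 and 0.46 and over the 6 wild-type means -0.66 and -0.70. Plaur and Tfpi2 correlated at 0.89 over 12 means, and at 0.58 over the knockout-labelled and 0.79 over the wild-type means. Plaur and Serpinb2 correlated at -0.64 over 12 means, but at 0.83 over the knockout-labelled and 0.75 over the wild-type means. Over the wild-type means Plat correlated with Tfpi2 at 0.90 and with Serpinb2 at 0.87. Over the knockout-labelled means these values were 0.33 and 0.04. Among genes outside the set, those whose 12 group means were most like a member's were Tll1, Adamts9 and Slco4a1 for Plau (r = 0.991, 0.989 and 0.989) and Ufd1, Cemip2 and 4921524J17Rik for Plaur (0.991, 0.988 and 0.988). For Plat they were Zfp827, Mboat7 and Prg4 (0.981, 0.981 and 0.974), for Serpinb2 Serp2, Tmem201 and Bmpr1b (0.984, 0.973 and 0.972), and for Tfpi2 Bcat1, Eprs and Rrbp1 (0.987, 0.986 and 0.981). The points share the arrays and the step between the genotypes, so these correlations are descriptions.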

How the data were processed

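The deposited table holds log2 expression values of 42 arrays for which the submitters' processing notes name RMA and no version. In the file each of 45101 probe sets has a median of 0 over the arrays, so values are relative, and base 2 was inferred from their range. Probe sets with 1 gene name (34958) were reduced to 1 per gene, the one with the largest SD, avoiding those correlated above 0.7 with 18S ribosomal RNA, which left 18194 genes. All 42 arrays were fitted with 12 group means in limma 3.58.1 (R 4.3.3; lmFit and eBayes), with Benjamini-Hochberg adjustment within each of 33 comparisons and a threshold of 0.05. Differences between group means are given ± SE. The number of arrays limits the precision, and p-values measure only the spread between cultures that the labels call biological replicates without naming animals. Culture sets were found from the values, as the split shared by most probe sets whose values leave an empty stretch of 1 or more (12 of 15 in knockout-labelled and 33 of 42 in wild-type arrays). The fit was tested on simulated data.

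The members and gene lists were chosen with earlier results of these data known. All 5 measured members are named in the treatment comparisons of each genotype and between the genotypes. In the other comparisons only some members are named. The 4 genes of each list with the smallest adjusted p in a treatment comparison and the 3 genes most like each member are also named. Alternatives were a replicate or culture set block, other probe set choices, cyclic loess, quantile normalization, array weights, robust eBayes, only the groups compared, leaving out the 15 arrays with an 18S value above 1, and leaving out each replicate in turn. Cyclic loess and quantile normalization were run on the centred values, which hold no expression level. Each culture set alone was added after the data were seen. Same-numbered replicates correlated from -0.652 to 0.716 and were not taken as pairs.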

Additional observations from a re-analysis of the deposited data

Results flagged for a closer look

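Plau under TNFa lay to opposite sides of the untreated mean in the 2 genotypes, though neither response passed the test (limma adjusted p = 0.0934 in knockout-labelled and 0.64 in wild-type cultures). All 4 knockout-labelled TNFa arrays (0.88, -0.41, 0.87 and -0.11) lay above the untreated knockout-labelled mean of -0.44, the lowest of them barely and 2 of them inside the untreated range, and both wild-type TNFa arrays (2.27 and 2.57) lay below the untreated wild-type mean of 3.17. The difference in response was 1.50 ± 0.50 and did not pass the test (limma adjusted p = 0.25). With the culture sets matched between the genotypes by letter, which is arbitrary, it was 1.58 in set a and 1.37 in set b. No array stood far from its group in any of 30 sets of 4 to 8 values tested.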

How the results depend on the processing

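Of 165 pairs of member and comparison 38 passed the test. Under the alternatives 672 of 674 values of these pairs kept their direction and 604 stayed past the threshold, and 16 pairs passed under every alternative run. The 2 that reversed did so under cyclic loess, Plau between the genotypes under TNFa (0.17, adjusted p = 0.85) and Serpinb2 between the genotypes under TSG-6 (-0.53, adjusted p = 0.68). Cyclic loess left 8 of 21 calls between the genotypes under treatment. Quantile normalization left 0 of 3 treatment calls in wild-type cultures and gave 7 in place of 3 between treatments. The causes were not tested. With the culture set as a block the calls became 9 in place of 5 (knockout-labelled treatments), 7 in place of 3 (wild-type treatments), 3 in place of 0 (differences in response), 2 in place of 1 (mixture against its parts) and 9 in place of 3 (between treatments). Between treatments there was 1 call with only the groups compared, and 0 when arrays high in 18S were left out and in culture set b alone, fits that hold fewer arrays. Shares of all genes called under the alternatives are not given here or below. A rise or fall in member calls therefore cannot be told from a general one.

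Same-numbered replicates correlated above 0.1 in 59 of 85 pairs, and 24 of 42 arrays correlated best with their own number. Pairing was taken only if every pair passed 0.1, and the lowest was -0.652, so the numbers were not taken as pairing. Among the treated wild-type groups, where replicate 1 is culture set a and replicate 2 is set b, the pairs correlated at 0.405 to 0.686. The correlations are of deviations from group means, which mirror each other in a group of 2. Each value between these groups is therefore counted under both numbers. With the replicate number as a block the calls were 8 in place of 5 in knockout-labelled treatments, 3 in place of 1 for the mixture against its parts and 10 in place of 3 between treatments. It put Serpinb2 past the threshold in knockout-labelled cultures under LPS (1.49), TSG-6 (1.61), HA (0.83) and TSG-6 with HA (1.54).

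Leaving out each replicate in turn gave 4 to 6 calls in knockout-labelled and 2 to 3 in wild-type treatments, 5 to 5 between the untreated genotypes, 19 to 22 between the genotypes under treatment, 0 to 0 differences in response, 1 to 1 for the mixture and 2 to 5 between treatments, with 5 without knockout-labelled TSG-6 replicate 3. Groups of 2 arrays and values without a level limit what these arrays can show.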
